A study of Mus musculus with 16 samples.

Results

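The cytosolic ribosomal protein genes encode the proteins of the ribosome outside mitochondria. They were taken from the gene-level table by symbol: protein-coding genes named Rpl or Rps followed by a number, with Rplp0, Rplp1, Rplp2 and Rpsa. Symbols ending in -ps (annotated copies without a working reading frame) and the S6 kinase genes named Rps6k were left out. This gave 82 genes of 49585 in the table, 50 of the large subunit and 32 of the small subunit. Their names chose them, not their values.

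RNA was measured in 16 pools of CD4+ T cells from mice of a BALB/c background carrying Foxp3IRES-GFP, a reporter in which the Foxp3 gene also drives green fluorescent protein, so that regulatory T cells (Treg) can be sorted alive. Every group carries this reporter. The groups were 4 pools of CD4+Foxp3- conventional T cells (CD4conv) of the non-pregnant uterus, 4 of CD4+Foxp3+CD25+ Treg of the non-pregnant paraaortic lymph nodes that drain the uterus, 4 of CD4+Foxp3+CD25- Treg of the non-pregnant uterus, and 4 of CD4+Foxp3+CD25- Treg of the uterus at days 6 to 8 of pregnancy. Days 6 to 8 follow the source label of the pregnant pools, while some of their titles give a later last day. Each non-pregnant pool came from 20 mice and each pregnant pool from 3 to 8 mice. The labels give no age of the mice. By the labels, sequencing batch 1 held CD4conv and pregnant uterine Treg, and batch 2 held the Treg of both non-pregnant tissues. The lymph node and uterine Treg also differ in the CD25 gate of the sort.

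The ribosomal proteins are assembled with ribosomal RNA in fixed proportions, and their genes are usually transcribed in step. Many of their mRNAs start with a C followed by a run of C and T, the terminal oligopyrimidine (TOP) motif, through which the kinase mTOR controls their translation together with that of elongation factors. T cells are known to raise ribosome production when they leave quiescence, with Myc and mTOR as regulators.

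Total counts ran from 1718558 to 15190212 per library. Olfactory and vomeronasal receptor genes, which T cells are not known to express, took counts in all groups. Scaled to exonic length, their counts put a background under 9.40 to 21.7% of the counts in CD4conv, 9.20 to 38.6% in lymph node Treg, 11.5 to 34.9% in uterine Treg and 8.68 to 53.5% in pregnant uterine Treg. Foxp3 checked the labels: it had 1.85 ± 1.52 CPM (counts per 1000000 counts; SD, n = 4) in CD4conv, 559 ± 182 in lymph node Treg, 416 ± 210 in uterine Treg and 475 ± 318 in pregnant uterine Treg. The CD4conv libraries also held counts of other cells. Macrophage and dendritic cell markers summed to 1735 to 23381 CPM there, against 122 to 159 in lymph node Treg, 305 to 1295 in uterine Treg and 168 to 501 in pregnant uterine Treg. All 15 had counts in each group. Because the libraries are bulk RNA, fewer cells with high ribosomal protein mRNA and less of it per cell cannot be told apart.

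Runs of C and T near the annotated starts were counted, since the TOP motif is such a run. RefSeq promoter windows (build GRCm38.p6) were found for 62 of the 82 genes. In the 30 bases around the start, 15 on each side, a run of 8 or more C and T on the gene strand was present in 41.9% of these genes and in 13.9% of all 27025 genes in that table. The median longest run was 7 bases against 5. Below are the windows of 9 genes whose counts the results turn on, each 5′ to 3′ on the gene strand, with runs of 5 or more C and T in capitals. Rpl15 lies at chr14:18270972-18271001 (minus strand), Rpl31 at chr1:39367836-39367865 (plus), Rpl35 at chr2:39005117-39005146 (minus), Rps25 at chr9:44407699-44407728 (plus), Rps18 at chr17:33955651-33955680 (minus), Rpl36al at chr12:69184053-69184082 (minus), Rps6 at chr4:86857353-86857382 (minus), Rps27 at chr3:90213634-90213663 (minus) and Rps27l at chr9:66946071-66946100 (plus).
Rpl15: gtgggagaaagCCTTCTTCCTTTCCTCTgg
Rpl31: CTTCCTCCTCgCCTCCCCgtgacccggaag
Rpl35: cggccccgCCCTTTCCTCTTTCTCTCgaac
Rps25: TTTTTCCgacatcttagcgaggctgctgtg
Rps18: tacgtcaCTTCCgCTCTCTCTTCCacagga
Rpl36al: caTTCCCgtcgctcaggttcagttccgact
Rps6: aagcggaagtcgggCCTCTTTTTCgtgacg
Rps27: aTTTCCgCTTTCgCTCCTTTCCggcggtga
Rps27l: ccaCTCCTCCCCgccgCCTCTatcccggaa
Rpl35 and Rpl15 have the longest runs of the 9, at 18 and 17 bases, and Rpl36al the shortest, at 5. The runs of Rps25 and Rpl36al lie wholly before the annotated start. A run anywhere in the window was counted, whether or not the transcript begins with it, so the count is not one of TOP mRNAs. Over the whole 300-base windows (250 bases before the start and 50 after it, both strands), CCGGAAG, the core bound by ETS factors, was found in 40.3% of the members and 9.93% of all genes. CTCTTTC was found in 27.4% against 9.28%, and TATAAA, the TATA box core, in 9.68% against 15.7%. These are matches of letters, not sites shown to be bound.

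Levels of the members spread widely. Per kilobase of annotated exon, the highest means over the 16 libraries included Rplp1 (633 CPM per kb), Rps27 (572), Rps29 (508), Rpl36 (503), Rpl32 (397), Rpl4 (364) and Rps15 (304). Rplp1 encodes an acidic protein of the stalk, the arm of the large subunit that recruits elongation factors. Its partners Rplp2 and Rplp0, the stalk base, ranked 33 and 15 with 106 and 213 CPM per kb. Rpsa, a small-subunit protein once described as a laminin receptor, ranked 19 with 174 CPM per kb. Rps6, the target of S6 kinase, ranked 22 with 144 CPM per kb. These ranks depend on the length used. Per kilobase of a chosen transcript, Rps27 (1730), Rps29 (902), Rpl32 (739) and Rpl37a (737) stood above Rplp1 (633). So did Rpl13 (726) and Rps19 (693), and Rplp2 had 227. The lowest 5 were Rpl24 (2.94 CPM per kb), Rpl21 (2.61), Rpl39l (2.05), Rpl3l (0.736) and Rpl10l (0.0601).

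**Figure D1:**
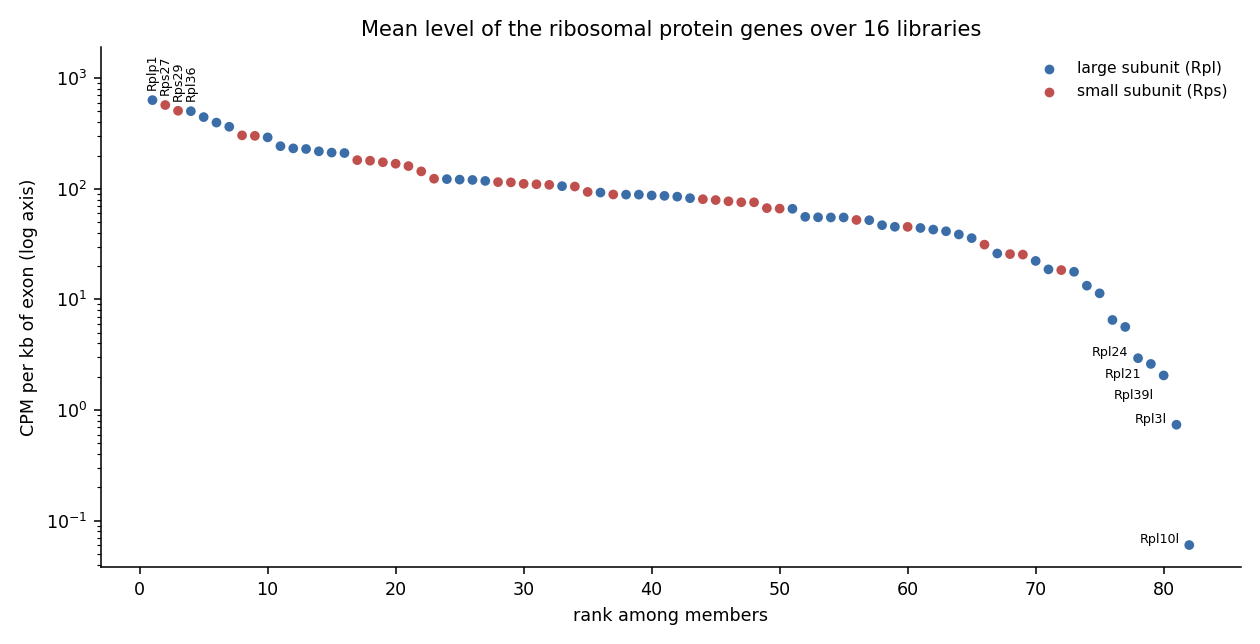
Mean CPM per kilobase of exon over 16 libraries (log axis) of the 82 ribosomal protein genes, by rank, with large-subunit genes in blue and small-subunit genes in red. Rplp1 is highest at 633 on this scale, and the last 5 genes drop from 2.94 for Rpl24 to 0.0601 for Rpl10l.

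Near-identical copies limit these levels. Besides the members, 280 genes of the deposited table carry ribosomal protein symbols with -ps, and how reads that fit several places were counted is not given in the sources used here. Of the 82 members, 65 share between 10 and 90% of their 100-base transcript windows with another annotated transcript, 3 share over 90% and 14 under 10%. The share of copied windows and the level per kilobase of transcript had a Spearman rho of -0.128 across the 82 genes, a description with no test. Single genes still stand out: the 14 -ps copies of Rpl21 together had 23.6 CPM and Rpl21 itself 8.87, so 72.7% of the counts of Rpl21 and its copies fell on copies. This share was 70.6% for Rps2 (80.7 CPM on copies, 33.7 CPM on the gene), 70.4% for Rpl23a and 50.0% for Rpl7a. Rpl24, with no -ps copy in the table, had 3.03 CPM and shares 80.1% of its windows with 5 other genes. Members called below carry this limit to unlike degrees. Rpl31 shares 63.2% of its windows, and its 21 -ps copies had 50.2 CPM, 25.4% of the gene and its copies. The shared part is 91.6% for Rpl10, 83.6% for Rps6, 65.8% for Rpl15, 56.8% for Rps25, 41.3% for Rps28 and 24.7% for Rps29.

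Several members have a paralog of restricted use. Rpl10l, Rpl39l and Rpl3l are known from testis, testis and striated muscle. Rpl10l had 5 counts in all 16 libraries together, Rpl3l 120 and Rpl39l 142, means of 0.0614, 1.21 and 1.71 CPM where background alone gives 1.84, 2.96 and 1.50. Their partners Rpl10, Rpl3 and Rpl39 stood at 84.9, 120 and 92.5 CPM per kb. Rps4l, the partner of Rps4x (182 CPM per kb), was not analysed here. Rpl22l1 took 34.9 ± 7.39% of the summed counts of Rpl22 and Rpl22l1 in CD4conv, 35.1 ± 6.30% in lymph node Treg, 39.8 ± 6.51% in uterine Treg and 33.5 ± 17.3% in pregnant uterine Treg (SD, n = 4 each), groups that overlap in every pair.

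The members moved together from library to library. Of the 82, 75 lie above background, meaning a mean share of counts over 5 times the background of a gene of their length. Rpl13a, Rpl35a and the 5 lowest genes do not. Among the 75, CD4conv replicate 2 had the highest CPM of its group for 74 and lymph node Treg replicate 1 for all 75, while pregnant uterine Treg replicate 4 had the lowest for 68. That last library also had the highest background, 53.5%. The other 2 had the lowest backgrounds of their groups, 9.40% in CD4conv replicate 2 and 9.20% in lymph node Treg replicate 1. CPM falls as background rises. By share of counts above background these 2 were highest for 74 and 71 members, and pregnant uterine Treg replicate 4 was lowest for 43. Pregnant uterine Treg replicate 2 was highest of its group for 65 on that scale and for 33 by CPM. The median SD of log2(CPM + 1) within groups was 0.59 over the 75 members. It was 0.51 when counts were scaled to those of all 4732 genes above background, against 0.52 for all those genes, and 0.24 when scaled to the members' own total. Rpl36, a large-subunit protein, kept the steadiest share of that total, with an SD of 0.11.

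**Figure D2:**
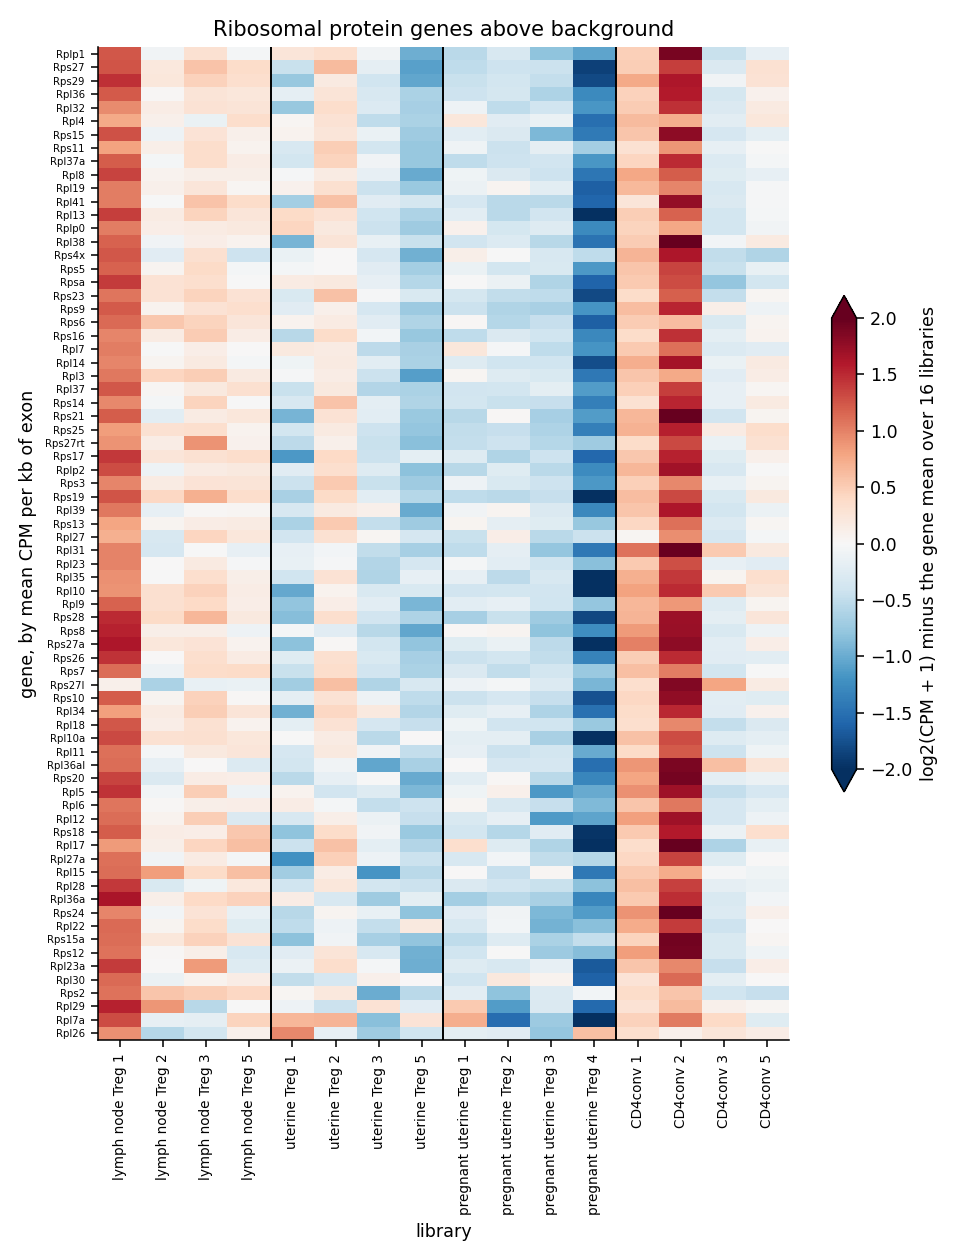
Level of 74 of the 75 ribosomal protein genes above background (rows, by mean CPM per kb) in 16 libraries (columns), as log2(CPM + 1) minus the gene's mean, with red above and blue below it. Lymph node Treg 1 and CD4conv 2 are red and pregnant uterine Treg 4 is blue over nearly all rows.

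Summed over the 82 genes, ribosomal protein counts had their lowest mean shares of the library in both uterine Treg groups. They took 3.22, 1.58, 1.82 and 1.62% of all counts in lymph node Treg replicates 1, 2, 3 and 5, and 1.26, 1.75, 1.18 and 0.916% in uterine Treg replicates 1, 2, 3 and 5. In pregnant uterine Treg replicates 1 to 4 they took 1.28, 1.18, 1.06 and 0.593%, and in CD4conv replicates 1, 2, 3 and 5 they took 2.14, 3.76, 1.22 and 1.47%. Lymph node Treg lay above every pregnant uterine Treg library and overlapped with uterine Treg through the 1.75% of replicate 2. CD4conv spanned the values of lymph node Treg and reached down into those of uterine Treg.

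Set against counts of genes above background only, which leaves out much of the background, both uterine groups again had the lowest means. The 4 lymph node Treg libraries had 4.23, 2.50, 3.20 and 2.28%, those of uterine Treg 1.79, 2.24, 2.01 and 1.77%, those of pregnant uterine Treg 1.70, 2.17, 1.43 and 1.29%, and CD4conv 3.16, 5.48, 1.81 and 2.26%. On this scale all 4 lymph node Treg libraries lay above all 8 uterine Treg libraries, the nearest pair being 2.28 and 2.24%. The means were 3.05 ± 0.877, 1.95 ± 0.221, 1.65 ± 0.388 and 3.18 ± 1.64% (SD, n = 4). No test was run on these sums. The ratio of large-subunit to small-subunit counts was 1.18 to 1.26 in lymph node Treg, 1.14 to 1.27 in CD4conv, 1.22 to 1.51 in uterine Treg and 1.29 to 1.40 in pregnant uterine Treg, so that the pregnant libraries lay above those of lymph node Treg and CD4conv.

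**Figure D3:**
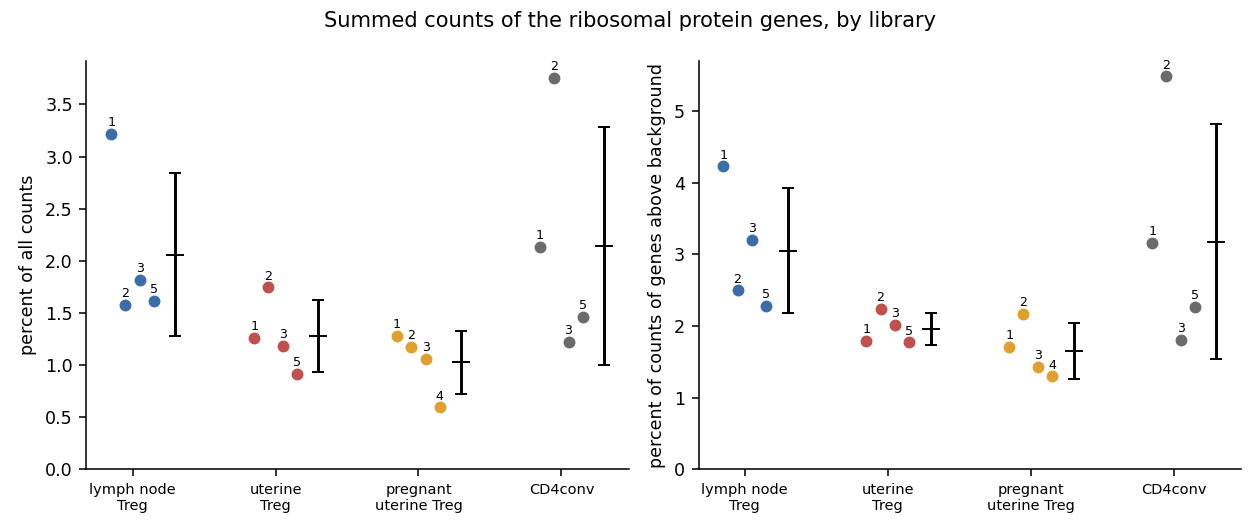
Summed counts of the 82 ribosomal protein genes as a percent of all counts (left) and of counts of genes above background (right), one point per library with its replicate number, and the mean with SD beside each group. Lymph node Treg 1 (3.22% on the left) and CD4conv 2 (3.76%) are the highest of their groups.

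Gene by gene, differences were tested with edgeR's quasi-likelihood test over all 16 libraries, with p-values adjusted by Benjamini-Hochberg over every gene in the fit. The fit over all 30096 genes that passed the filter on low counts held 81 members (Rpl10l did not pass). It was repeated on genes above background, of which 4727 were tested, 75 of them members. The genes above background as a whole had median log2 fold changes of -0.22, -0.29, 0.05 and -0.23 in the all-gene fit in the comparisons below, in order, and of 0.05, 0.02, 0.00 and 0.03 in the repeat. The 4 comparisons share libraries and are not independent of each other.

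The first comparison asked what sets Treg of the uterus apart from Treg of its draining node. Rpl15, a large-subunit protein, was the only member called on genes above background, and it was lower in the uterus. It had 201, 165, 120 and 140 CPM in lymph node Treg replicates 1, 2, 3 and 5 and 56.3, 101, 39.9 and 62.9 CPM in uterine Treg replicates 1, 2, 3 and 5. Every lymph node library was above every uterine one. The log2 fold change of Rpl15 was -1.13 ± 0.27 (SE; edgeR adjusted p = 0.0492). That is 1 of 75 members called lower, where 0.36% of the 4727 genes were, and 0 called higher, where 0.931% were. The call was kept with 3 of the 16 libraries left out in turn and lost with the other 13, with adjusted p up to 0.185.

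Over all genes, edgeR called 0 of 81 members in that comparison, with 0.0% of all genes called lower, and DESeq2 called 0. At an unadjusted p under 0.05 there were 2 members, Rpl15 and Rpl36a, where 3.01% of all genes passed, and 80 of the 81 estimates were below 0, against 53.1% of all genes. The members' median log2 fold change was -0.89 over all genes and -0.53 on genes above background. Point estimates were below 0 for 73 of the 75 members, against 45.5% of the 4727 genes. Without lymph node Treg replicate 1 the median was -0.25, and -0.15 over all genes. By CPM, 11 of 81 members had all uterine libraries below all lymph node ones, against 2.18% of all genes. Among them were Rpl3 and Rpl10, of the catalytic part of the large subunit, and Rps6. On shares of counts above background it was 20 of 75, against 6.96%, and 0 lay wholly higher, against 3.64%. The macrophage and dendritic cell markers, summed above, were also higher in all 4 uterine than in all 4 lymph node libraries. On genes above background all 10 of these tested had estimates above 0 (median log2 fold change 2.33, 0 called), as did 5 of 5 red cell and neutrophil markers (median 5.50, 0 called) and 3 of 3 markers of stroma, epithelium and endothelium (median 4.04, 0 called). Tyrobp, of the NK and CD8 list, was called higher, 1 of 3 tested. A marker rare in lymph node Treg passes the background filter only through its counts in other groups. The filter thus favours estimates above 0 here, and these signs alone decide little. In the all-gene fit, estimates were above 0 for 13 of 15 macrophage and dendritic cell markers (median 1.23). They were above 0 for 7 of 7 red cell and neutrophil markers (3.27) and 11 of 15 stroma markers (1.24). The 9 red cell and neutrophil markers summed to 1.59 to 26.8 CPM in lymph node Treg, where S100a8 had no count, and 7.30 to 232 CPM in uterine Treg, and the 15 stroma markers to 137 to 413 and 220 to 1728 CPM. The part of these cells was not tested.

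The second comparison set uterine Treg against CD4conv of the same tissue, across the 2 sequencing batches, so that the batches and the cell types cannot be told apart. Of the 75 members above background, 3 were called lower in uterine Treg and 0 higher, where 2.98% of all genes tested were called lower and 3.11% higher. They were Rpl36al, Rpl31 and Rps25. Rpl31, which sits by the exit of the peptide tunnel, had 263, 488, 178 and 141 CPM in CD4conv replicates 1, 2, 3 and 5 and 110, 119, 87.4 and 77.7 CPM in uterine Treg. The groups did not overlap, and replicate 2 stood highest in CD4conv. The log2 fold change of Rpl31 was -1.38 ± 0.38 (edgeR adjusted p = 0.0345).

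Rps25, a small-subunit protein known for its part in translation from internal entry sites, had 431, 781, 296 and 338 CPM in CD4conv and 206, 302, 200 and 155 CPM in uterine Treg. The uterine value of 302 in replicate 2 was above the lowest CD4conv value. For Rps25 the log2 fold change was -1.04 ± 0.30 (edgeR adjusted p = 0.0432). Rpl36al, an intronless relative of X-linked Rpl36a that encodes nearly the same protein, had 117, 234, 96.4 and 75.4 CPM in CD4conv and 48.5, 59.5, 30.1 and 39.6 CPM in uterine Treg. These groups did not overlap, and the log2 fold change was -1.51 ± 0.38 (edgeR adjusted p = 0.0214). Rpl36al shares 59.0% of its transcript windows with other transcripts, Rpl36a among them, so that the split of reads between both is uncertain.

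The count of 3 rested on single libraries. It was 0 without CD4conv replicate 2, without uterine Treg replicate 1 or without uterine Treg replicate 3, 1 without CD4conv replicate 1 or uterine Treg replicates 2 or 5, 5 without CD4conv replicate 3 and 7 without CD4conv replicate 5. Over all genes edgeR called 0 of 81 (0.485% of all genes were called lower and 0.0332% higher), with 19 at an unadjusted p under 0.05, against 5.33% of all genes, and 0 by DESeq2, while DESeq2 on genes above background called 8 lower, where it called 4.9% of genes lower. The members' median log2 fold change was -0.71 on genes above background and -1.13 over all genes. All 75 point estimates were below 0, against 48.6% of the genes tested, as were all 81 over all genes, against 52.2%. By CPM, Rpl10, Rpl31 and Rpl36al lay wholly lower (3 of 81, against 2.65% of all genes) and 0 wholly higher (1.68%). By share of counts above background 6 of 75 lay wholly lower (7.04%) and 0 higher (4.82%). Without CD4conv replicate 2 the median was -0.20. Marker genes of other cells differed in the same comparison. Over all genes, where every gene of these lists was tested, 6 of 15 macrophage and dendritic cell markers were called lower in uterine Treg. So were 9 of 10 plasmacytoid dendritic cell markers and 3 of 9 NK and CD8 T cell markers. In CD4conv replicates 1, 2, 3 and 5 the 15 macrophage and dendritic cell markers summed to 5248, 17717, 23381 and 1735 CPM. Replicate 2, the library richest in ribosomal protein counts, was the second richest in them. Replicate 3, the richest in them, had the lowest ribosomal protein share of its group, 1.22% of all counts. The plasmacytoid list summed to 2762 to 6763 CPM in CD4conv and to 89.2 to 500 CPM in uterine Treg, where Cox6a2 alone of its 10 genes had no count. The part of these cells in the result was not tested.

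**Figure D4:**
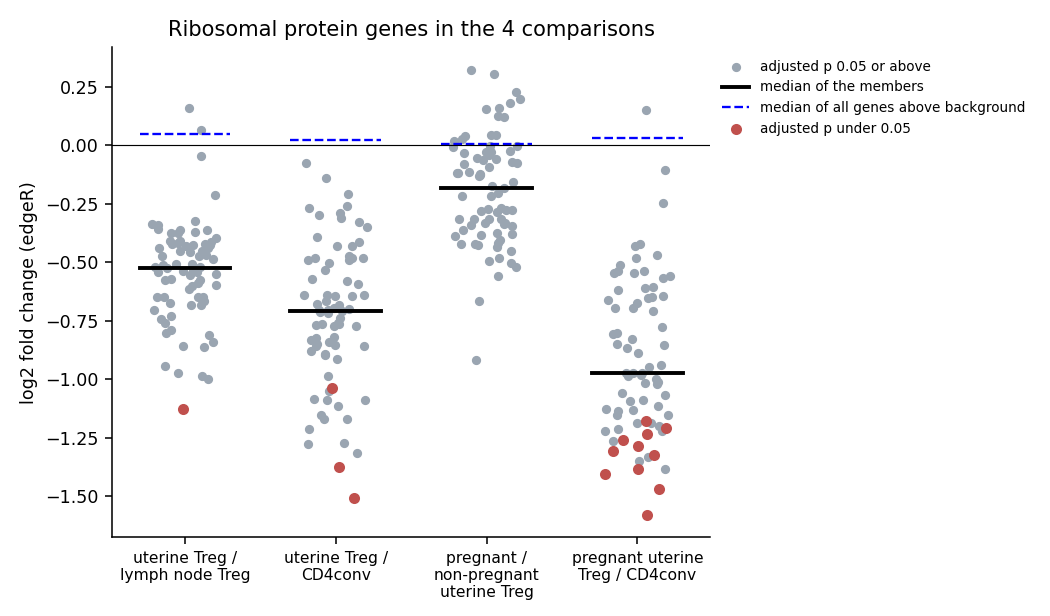
Log2 fold changes (edgeR, genes above background) of the 75 ribosomal protein genes in the 4 comparisons, one point per gene, red where the adjusted p was under 0.05. The solid line is the members' median (-0.53, -0.71, -0.18 and -0.98 from left to right) and the dashed line that of all genes tested, which is near 0.

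Pregnancy was addressed by setting pregnant against non-pregnant uterine Treg, which again crosses the batches and also the number of mice per pool. No member was called in either direction: edgeR called 0 of 75 on genes above background (0.0% of genes called lower), with 0 at an unadjusted p under 0.05, where 6.37% of genes passed, and 0 by DESeq2. Over all genes it called 0 of 81 (0.0%) and DESeq2 0. At an unadjusted p under 0.05 there was 1 member, against 2.73% of all genes: Rpl21, a large-subunit gene near background, with a positive log2 fold change of 1.60 ± 0.77 (edgeR adjusted p = 1.00). The median log2 fold change was -0.18 on genes above background, and 61 of 75 point estimates were below 0, against 49.6% of genes tested. Rps23, which lines the decoding site of the small subunit, had the lowest p of the members on genes above background. It had 155, 289, 189 and 154 CPM in uterine Treg replicates 1, 2, 3 and 5 and 150, 136, 134 and 54.0 CPM in pregnant uterine Treg. The pregnant values ended just below the non-pregnant ones, and it was the only member of 81 without overlap (0.498% of all genes in this direction, and 0 members against 0.532% in the other). By share of counts above background 0 of 75 lay wholly lower (1.48%) or higher (1.73%). Its log2 fold change was -0.66 ± 0.32 (edgeR adjusted p = 0.771). Estimates ran from -0.92 for Rpl7a to 0.32 for Rps4x, the X-linked small-subunit gene.

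Most of the calls came from setting the pregnant Treg beside CD4conv, which stays inside batch 1. Cell type, pregnancy and the number of mice per pool change together here and cannot be told apart. Of the 75 members above background 11 were called lower in pregnant uterine Treg and 0 higher, where 4.27% of all genes tested were called lower and 4.1% higher. The 5 lowest fold changes were those of Rpl31, Rps28, Rpl10, Rpl36al and Rps29, and the other 6 were Rps18, Rpl14, Rpl35, Rps19, Rps9 and Rps25. Rpl31 had 87.0, 109, 72.2 and 45.1 CPM in pregnant uterine Treg replicates 1 to 4, all below the lowest CD4conv value of 141. The log2 fold change of Rpl31 here was -1.58 ± 0.38 (edgeR adjusted p = 0.0143).

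Rpl10, a late-joining large-subunit protein close to the catalytic centre, had 264, 428, 216 and 180 CPM in the CD4conv replicates. Its values in the pregnant pools were 115, 117, 116 and 32.2 CPM, with no overlap and with replicate 4 apart from the other 3. Rpl10 had a log2 fold change of -1.41 ± 0.34 (edgeR adjusted p = 0.0149). Rps28, of the small-subunit head, had 184, 377, 100 and 136 CPM in CD4conv, against 71.8, 84.2, 69.9 and 31.9 CPM in the pregnant pools. These groups did not overlap either, and the log2 fold change was -1.47 ± 0.40 (edgeR adjusted p = 0.0282). Rps29, a zinc-binding small-subunit protein, had 502, 912, 282 and 362 CPM against 218, 230, 212 and 84.2 CPM, a log2 fold change of -1.33 ± 0.37 (edgeR adjusted p = 0.0320). Rpl36al had 63.0, 49.5, 49.5 and 21.5 CPM in pregnant uterine Treg, and its log2 fold change was -1.39 ± 0.38 (edgeR adjusted p = 0.0288).

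This count also moved with single libraries. It was 1 without CD4conv replicate 2, 2 without pregnant uterine Treg replicate 3, 4 without pregnant replicate 1 or replicate 4, 6 without CD4conv replicate 1, and 20 or 23 without CD4conv replicates 3 or 5. It was 0 without the libraries over 30% background and 0 when only these 8 libraries were fitted, and DESeq2 called 30, where it called 6.89% of all genes above background lower. With the replicate number as a block, 6 were called lower, though pools of pregnant and non-pregnant mice cannot share mice. Over all genes edgeR called 0 of 81 members, where 0.399% of genes were called lower and 0.0332% higher, with 44 at an unadjusted p under 0.05, against 4.79% of all genes, and 0 by DESeq2. There 79 of the 81 estimates were below 0, against 46.3%. The median log2 fold change was -0.98 on genes above background, with 74 of 75 estimates below 0 (48.0% of genes tested), and -0.41 without CD4conv replicate 2. By CPM, 26 of 81 members did not overlap, against 3.05% of all genes, and by share of counts above background 9 of 75, against 9.03%. In the other direction 0 did, against 1.31% and 4.48%. Over all genes, 6 of 15 markers of macrophages and dendritic cells were called lower too. So were 8 of 10 of plasmacytoid dendritic cells and 2 of 9 of NK and CD8 T cells. The part of these cells was not tested.

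**Figure D5:**
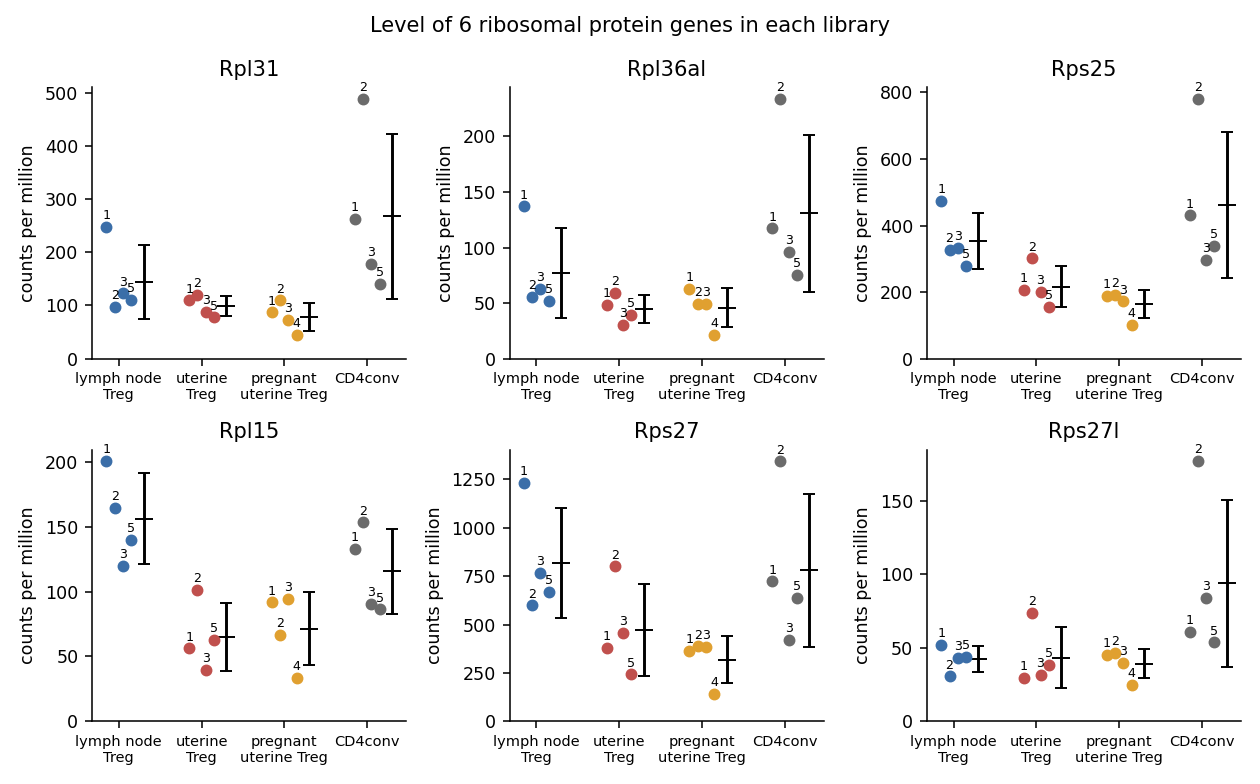
CPM of 6 ribosomal protein genes in each library, with the replicate number at each point and the mean with SD beside each group. Rpl31 and Rpl36al are higher in the 4 CD4conv libraries than in all 8 uterine Treg libraries, Rpl15 is higher in lymph node Treg than in uterine Treg, and Rps27l is lowest relative to Rps27 in lymph node Treg.

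Taking lymph node Treg as the base for the other groups, 2 contrasts were added after the data were seen. Pregnant uterine Treg against lymph node Treg crosses tissue, pregnancy, batch, the CD25 gate and the number of mice per pool. Rps6 and Rps19, the gene most often mutated in Diamond-Blackfan anaemia, were called lower on genes above background (2 of 75, against 0.783% of genes tested). Rps6 had 460, 304, 285 and 249 CPM in lymph node Treg and 212, 141, 152 and 67.2 CPM in pregnant uterine Treg. No pregnant value reached the lowest of the node. Its log2 fold change was -0.98 ± 0.25 (edgeR adjusted p = 0.0469), and that of Rps19 was -1.29 ± 0.34 (edgeR adjusted p = 0.0499). The count was 0 in 11 of the 16 fits that left out 1 library, among them each fit without a pregnant library, 1 or 2 in 4 others and 12 without CD4conv replicate 2. It was 0 with the replicate block and 0 without the libraries over 30% background, and DESeq2 called 9 (1.94% of genes). The members' median log2 fold change was -0.76, and -0.47 without lymph node Treg replicate 1. For markers of other cells, estimates were above 0 for 10 of 10 macrophage and dendritic cell markers (median 1.99, 0 called), 5 of 5 red cell and neutrophil markers (median 5.14, 0 called) and 3 of 3 stroma markers (median 3.18, 0 called), and Tyrobp was called higher. Their summed CPM in pregnant uterine Treg was 168 to 501, 14.04 to 176 and 372 to 708 in that order, and their part was not tested. The background filter favours estimates above 0 here too. In the all-gene fit, 13 of 15 macrophage and dendritic cell markers were above 0 (median 0.963). So were 7 of 7 red cell and neutrophil markers (3.62) and 13 of 15 stroma markers (0.933). Other lists were mixed: 4 of 9 NK and CD8 T cell markers were above 0 (-0.08). Of plasmacytoid dendritic cell markers 6 of 10 were (0.29), and of B cell markers 6 of 10 (0.09). Of 81 members 48 did not overlap by CPM, against 2.66% of all genes. Over all genes edgeR called 0, with 10 at an unadjusted p under 0.05, against 3.1% of all genes, and 0 by DESeq2. CD4conv against lymph node Treg crosses cell type, tissue and batch. There edgeR called 0 of 75 members (4.76% of genes were called higher and 2.88% lower), with 3 at an unadjusted p under 0.05, against 15.8% of genes. DESeq2 called 1 higher, where it called 6.15% of genes higher. The median was 0.17, and -0.35 without CD4conv replicate 2.

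With library sizes set to the members' own summed counts, which asks whether any member departs from the rest, edgeR called 0 of 75 in each of the 4 comparisons, with 0, 2, 0 and 1 members at an unadjusted p under 0.05. No share of all genes is set beside these counts, because this scaling shifts the genes outside the members as well. The counts of 0 do not show that every member kept in step with the rest. Rpl31 was at -0.70 ± 0.27 in pregnant uterine Treg against CD4conv (edgeR adjusted p = 0.0968) and Rpl36al at -0.81 ± 0.30 in uterine Treg against CD4conv (edgeR adjusted p = 0.172).

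Shares within pairs of paralogs do not depend on library size. Rps27l, a target of p53 that can replace Rps27 in the small subunit, took 4.03 to 6.14% of the counts of Rps27 and Rps27l in lymph node Treg. It took 6.42 to 13.6% in uterine Treg, 9.35 to 15.1% in pregnant uterine Treg and 7.75 to 16.6% in CD4conv, so every lymph node library was below all others. In CPM, Rps27l had 51.8, 30.5, 43.1 and 43.7 in lymph node Treg, 29.4, 73.7, 31.4 and 38.1 in uterine Treg, 44.9, 46.6, 39.7 and 24.9 in pregnant uterine Treg and 61.0, 177, 83.9 and 53.7 in CD4conv. Rps27 itself had 1233, 599, 768 and 668 CPM in lymph node Treg, 378, 801, 458 and 242 in uterine Treg, 364, 387, 385 and 140 in pregnant uterine Treg and 723, 1342, 420 and 639 in CD4conv. The Rps27l values of lymph node Treg fall inside the range of uterine Treg, and its Rps27 values overlap with those of uterine Treg but lie above all pregnant ones. For each of the 3 contrasts with lymph node Treg, the exact two-sided permutation p was 0.0286, the smallest that 70 arrangements allow, and 0.114 after Benjamini-Hochberg adjustment over 24 tests of pairs and contrasts. The Rps27l transcript shares no 100-base window with another gene, while 98.4% of the windows of Rps27 are shared.

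Rpl36al took 60.7 to 70.1% of the counts of Rpl36a and Rpl36al in CD4conv and 42.4 to 50.2% in lymph node Treg. In uterine Treg it took 46.1 to 59.5%, and in pregnant uterine Treg 52.0 to 66.7%. CD4conv did not overlap with lymph node or non-pregnant uterine Treg, and pregnant uterine Treg did not overlap with lymph node Treg (exact permutation p = 0.0286 each, adjusted 0.114). Rpl36a had 159, 55.3, 66.9 and 70.3 CPM in lymph node Treg and 31.5, 34.7, 32.0 and 19.9 in pregnant uterine Treg.

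Other genes of protein synthesis were followed by lists. Of 40 ribosome assembly genes, edgeR over all genes called 0 in each of the 4 comparisons. At an unadjusted p under 0.05 there were 3, 6, 0 and 7, where 3.01, 5.33, 2.73 and 4.79% of all genes passed. On genes above background, with 32 tested, it called 0 in the first 3 comparisons and 4 lower in pregnant uterine Treg against CD4conv. Of all genes tested, 0.36, 2.98, 0.0 and 4.27% were called lower in the 4 comparisons. The 4 were Fbl, the methyltransferase of box C/D particles, Nhp2 and Nop10, both of box H/ACA particles, and Nop2, an RNA methyltransferase. Fbl had 125, 155, 85.3 and 88.2 CPM in CD4conv, against 51.9, 36.4, 62.8 and 36.1 in the pregnant pools, without overlap. Fbl had a log2 fold change of -1.08 ± 0.27 (edgeR adjusted p = 0.0196). The list's median there was -0.45. Of 30 initiation factors 29 were tested on genes above background, and 2 were called lower in that comparison: Eif4a1, the helicase that unwinds mRNA starts (log2 fold change -1.43 ± 0.30, edgeR adjusted p = 0.00505), and Eif5a (-0.95 ± 0.26, edgeR adjusted p = 0.0288). The list's median was -0.12. With 4.27% of all genes tested called lower there, 2 of 29 is near the general share and is no result about the list.

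Elongation factors and other TOP mRNAs, which share the start motif, had 0 of 13 called in each comparison on genes above background, with medians of -0.25, -0.50, -0.02 and -0.42 in the order used above. Eef1a1, the factor that brings tRNAs to the ribosome, had 2016 ± 414 CPM in lymph node Treg, 1374 ± 431 in uterine Treg, 1145 ± 491 in pregnant uterine Treg and 1666 ± 390 in CD4conv (SD, n = 4). Eef1a1 had a log2 fold change of -0.42 ± 0.22 in uterine against lymph node Treg (edgeR adjusted p = 0.512). Tpt1 had 570 ± 236, 442 ± 151, 404 ± 157 and 643 ± 383 CPM in the same order. Among 20 regulators, 8 were above background and 0 were called in each comparison. With so few genes tested, 0 called in these lists is near the shares of all genes given above. Myc had 98.8, 91.5, 73.3 and 91.0 CPM in lymph node Treg, 53.8, 58.2, 30.1 and 34.6 in uterine Treg, and 53.2, 9.40, 25.5 and 0 in pregnant uterine Treg. All 8 uterine values were below all 4 of the node, yet the log2 fold change of uterine against lymph node Treg was -0.87 ± 0.66 (edgeR adjusted p = 0.722). Mtor had 36.5 ± 3.17 CPM in lymph node Treg and 46.8 ± 31.5 in uterine Treg.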

How the data were processed

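RNA-seq was made from 16 pools of sorted cells with SMART-Seq v4 cDNA and Nextera XT libraries, neither of which marks strand, per the labels' protocols. The values are gene-level read counts, deposited by the authors as raw whole numbers. The submitters' processing notes name Trimmomatic, HISAT2, SAMtools, featureCounts and DESeq2 and build GRCm38, with versions, settings and the treatment of reads with several matches not given in the sources used here. All 16 single-library files equal their columns of the table. Gene IDs were named with GENCODE M21 (49326 of 49585 matched).

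The members and gene lists were chosen with earlier results of these data known. Counts were fitted with edgeR 4.0.16 (quasi-likelihood, TMM, filterByExpr, robust, 1 coefficient per group) in R 4.3.3, adjusted by Benjamini-Hochberg, threshold 0.05. DESeq2 1.42.0, other size factors, no filter, left-out libraries, fits of 2 groups and the replicate number as a block were alternatives. The repeat on genes above background used protein-coding genes with a mean share over 5 times the per-base level of 1429 receptor genes. The fit was tested on simulated counts. Replicates are pools, and p-values measure the spread between pools. Fold changes are named for up to 5 called members in each direction per comparison, and levels for the 8 highest and 5 lowest members, the paralog pairs, stalk genes, Rps6 and Rpsa. The values of 1 of these members are not reported here, though it is counted with the rest. Rps23 was named after its values were seen, as were members listed for not overlapping.

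The replicate numbers were checked for pairing over 4732 genes. In pregnant uterine Treg against CD4conv the deviations of same-numbered libraries correlated at 0.116, 0.129 and 0.107, all over 0.1. Pools of pregnant and non-pregnant mice cannot share mice, so the number does not pair these groups by design. The block is given there only as an alternative. In the other 3 comparisons at least 1 correlation was below 0.1. The non-pregnant groups carry the same replicate numbers, so their same-numbered pools may share mice. A low correlation does not settle this. Uterine Treg were fitted without pairing against lymph node Treg and CD4conv, with the block as an alternative.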

Additional observations from a re-analysis of the deposited data

Results flagged for a closer look

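In groups of 4, a library is singled out when its gap to the nearest other one exceeds Dixon's 95% critical share of the group's range. In all, 72 sets of 4 values were examined, and chance alone singles out about 1 in 20 independent sets. Of the 72, 10 were singled out. The sets hold genes of the same libraries, which move together, so the 10 cannot be set against that rate. Lymph node Treg replicate 1 stood highest for the summed ribosomal protein percent (3.22%, gap 0.854 of the range) and for Rpl31 (0.832), Rpl36al (0.871), Rpl36a (0.855), Rps29 (0.869) and Rplp0 (0.941). Pregnant uterine Treg replicate 4, the library with 53.5% background, stood lowest for Rpl10 (0.976), Rps29 (0.875), Rps27 (0.908) and Rps19 (0.917).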

How the results depend on the processing

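Over all genes the count of members called lower was 0 in each of the 4 comparisons, under edgeR, DESeq2, other size factors, no filter, 2 groups only and the replicate block. On genes above background it became 1, 3, 0 and 11. Scaling to the members' own total, added after the data were seen, removes their shared change by construction, and their medians became 0.0376, 0.0212, 0.00611 and -0.0580 (0.00356 for pregnant uterine against lymph node Treg). On genes above background, without the libraries over 30% background, no member was called: 0 for uterine against lymph node Treg, 0 for uterine Treg against CD4conv and 0 for pregnant uterine Treg against CD4conv. DESeq2 called 8 and 30 in the last 2, and fits of 2 groups only called 1 and 0. The causes were not tested.

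With the replicate number as a block, pregnant uterine Treg against CD4conv had 6 members called lower in place of 11, though the number marks no shared mice. For pregnant against non-pregnant uterine Treg, where the numbers do not pair the samples either, the block gave a median over all genes of 0.0183 in place of -0.23. The block changed no other count of the 4 comparisons by over 1.5 times.

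Leaving out 1 library at a time, the medians over all genes ran from -1.34 to -0.15 (uterine against lymph node Treg), -1.64 to -0.34 (uterine Treg against CD4conv), -0.50 to 0.22 (pregnancy), -1.71 to -0.59 (pregnant uterine Treg against CD4conv) and -0.56 to 0.96 (CD4conv against lymph node Treg). The pregnancy median was 0.22 without uterine Treg replicate 2 and 0.04 without pregnant uterine Treg replicate 4. CD4conv against lymph node Treg was -0.56 without CD4conv replicate 2. On genes above background the counts ran from 0 to 1, 0 to 7 and 1 to 23 in the 3 of the 4 comparisons with calls, and from 0 to 12 for pregnant uterine against lymph node Treg. Medians there ran from -1.17 to -0.41 for pregnant uterine Treg against CD4conv, from -0.90 to -0.47 for pregnant uterine against lymph node Treg (-1.39 to -0.41 over all genes) and from -0.35 to 0.45 for CD4conv against lymph node Treg. The summed percent became 3.05, 1.95 and 1.65% in lymph node, uterine and pregnant uterine Treg with counts above background as the base.

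Depth and background limit the low members. The 7 not above background have mean shares under 5 times the background of a gene of their length, and the calls do not rest on them.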
